A study of Macaca fascicularis with 23 samples.

Results

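HADHA, HADHB and ACAA2 encode enzymes of mitochondrial fatty acid oxidation, and their liver transcripts were followed in cynomolgus monkeys (Macaca fascicularis) given ciprofibrate, a lipid-lowering fibrate and agonist of the nuclear receptor PPAR-alpha. The genes were chosen by name, with earlier results of these data known. Shares and ranks over all probe sets given below are therefore a background and not a test of that choice. All probe sets whose array annotation named any of the 3 genes were taken, whatever their values. This gave 3 of the 8229 genes named alone by a probe set, and 3 of the 12625 probe sets: 36952_at for HADHA, 39741_at for HADHB and 41530_at for ACAA2. Fatty acids are shortened in mitochondria by repeated rounds of dehydrogenation, hydration, a further dehydrogenation and thiolytic cleavage. For long chains, the mitochondrial trifunctional protein of the inner membrane carries out every step after the acyl-CoA dehydrogenase. Its alpha subunit, HADHA, holds the enoyl-CoA hydratase and the long-chain hydroxyacyl-CoA dehydrogenase, and its beta subunit, HADHB, holds the long-chain 3-ketoacyl-CoA thiolase. ACAA2 is a separate thiolase of the mitochondrial matrix that cleaves shorter chains. Fatty acid oxidation enzymes are textbook targets of PPAR-alpha in rodent liver.

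The study measured 23 animals, each on 1 array designed for human transcripts. At 15 days, 4 animals each had received ciprofibrate at 3 mg/kg/day, at 30, at 150 and at 400 mg/kg/day, beside 3 animals given vehicle only. The 4-day groups received 400 mg/kg/day (2 animals) or vehicle only (2 animals). Tissue came from the right lateral lobe of the liver, and the labels used here state neither the age nor the sex of the animals nor the nature of the vehicle. Values are intensities on a linear scale, and changes are given on the log2(intensity + 16) scale with the standard error (SE) of a limma fit over all 23 arrays. A change was called at an adjusted p (Benjamini-Hochberg over 7535 tested probe sets) under 0.05. A probe set was tested if its mean over all animals lay at or above the 40th percentile, a mean intensity of about 39.7, and 3 of 3 genes passed. Intensities of different probe sets were not ranked against each other, since monkey and human sequences can differ under a probe. Where 2 genes are set against each other, the difference of their log2 values was compared between groups of animals.

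All 9 hepatocyte markers of a fixed list were measured, ALB between 13609 and 31482 in every animal, as is usual in liver. Of the markers of other cells, 5 of the 7 for heart and skeletal muscle on the array fell below the filter. Summed intensities ran from 55103 to 101703 for hepatocyte markers, from 2482 to 5938 for 8 Kupffer cell and macrophage markers, from 1557 to 2513 for 8 sinusoidal endothelial markers and from 556 to 1053 for 9 stellate cell and fibroblast markers. They ran from 191 to 508 for 6 cholangiocyte, from 538 to 895 for 9 T and NK cell and from 134 to 547 for 7 muscle markers. No marker was listed at 0, the lowest value on any array being 0.1. Arrays correlated with the rest of their group at a mean of 0.846 to 0.921. Precision is limited by how few arrays each group has, above all the 2 per group at 4 days.

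At 15 days HADHA, the alpha subunit, stood at 496.3, 442.5 and 797.8 in vehicle animals. It stood at 997.8, 815.5, 556.9 and 1009.7 on 3 mg/kg/day and at 644.4, 1071.7, 892.8 and 757.0 on 30 mg/kg/day. On 150 mg/kg/day it reached 1532.3, 1734.3, 1343.5 and 1359.6, and on 400 mg/kg/day 1416.4, 1340.7, 1376.4 and 1003.1. Every animal on 150 or 400 mg/kg/day thus lay above every vehicle animal, while both lower doses overlapped with vehicle. At 3 and 30 mg/kg/day all animals lay above all vehicle animals for 4.05% and 4.03% of tested probe sets, and for 0 of the 3 genes. At 4 days the 400 mg/kg/day animals had 2220.2 and 2609.7, against 987.8 and 900.9 in vehicle animals. These treated animals were the highest of all 23 for HADHA, and by its group means the gene stood higher at 4 days than at 15 days on 400 mg/kg/day and on vehicle alike.

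HADHB, the beta subunit, had 1234.1, 2470.4 and 3182.9 in 15-day vehicle animals. It had 3821.2, 2993.7, 1594.8 and 1652.7 on 3 mg/kg/day, so both of these groups spread widely and overlapped. On 30 mg/kg/day the values were 3804.2, 4247.3, 4226.0 and 3076.9, with 3 of 4 animals above every vehicle animal. The higher doses stood apart from vehicle, 3 and 30 mg/kg/day, with 7413.7, 7842.6, 5385.7 and 6967.7 on 150 mg/kg/day and 7100.3, 7435.6, 6346.4 and 5533.2 on 400 mg/kg/day. At 4 days HADHB had 5005.8 and 6765.7 on 400 mg/kg/day, against 1813.7 and 1050.5 in vehicle animals, again with no overlap.

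ACAA2, the matrix thiolase, had 2814.4, 3440.1 and 5338 in 15-day vehicle animals. It had 4551.9, 5208.9, 3988.6 and 4174.7 on 3 mg/kg/day and 4696.6, 7493.8, 5909.4 and 4652.0 on 30 mg/kg/day, both overlapping with vehicle. On 150 mg/kg/day it reached 13151, 9485.9, 8462.6 and 11776.8, and on 400 mg/kg/day 10762.7, 9374.7, 11415.6 and 11150.7. All 8 of these animals lay above all 11 animals on vehicle, 3 or 30 mg/kg/day. HADHB and ACAA2 were 2 of only 12 tested probe sets (0.159%) for which this held, whereas for HADHA the 1003.1 of 400 mg/kg/day replicate 4 lay below the 1009.7 of 3 mg/kg/day replicate 4 and the 1071.7 of 30 mg/kg/day replicate 2. At 4 days ACAA2 had 13631.5 and 12744.6 on 400 mg/kg/day, against 3613.1 and 3252.8 in vehicle animals.

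**Figure D1:**
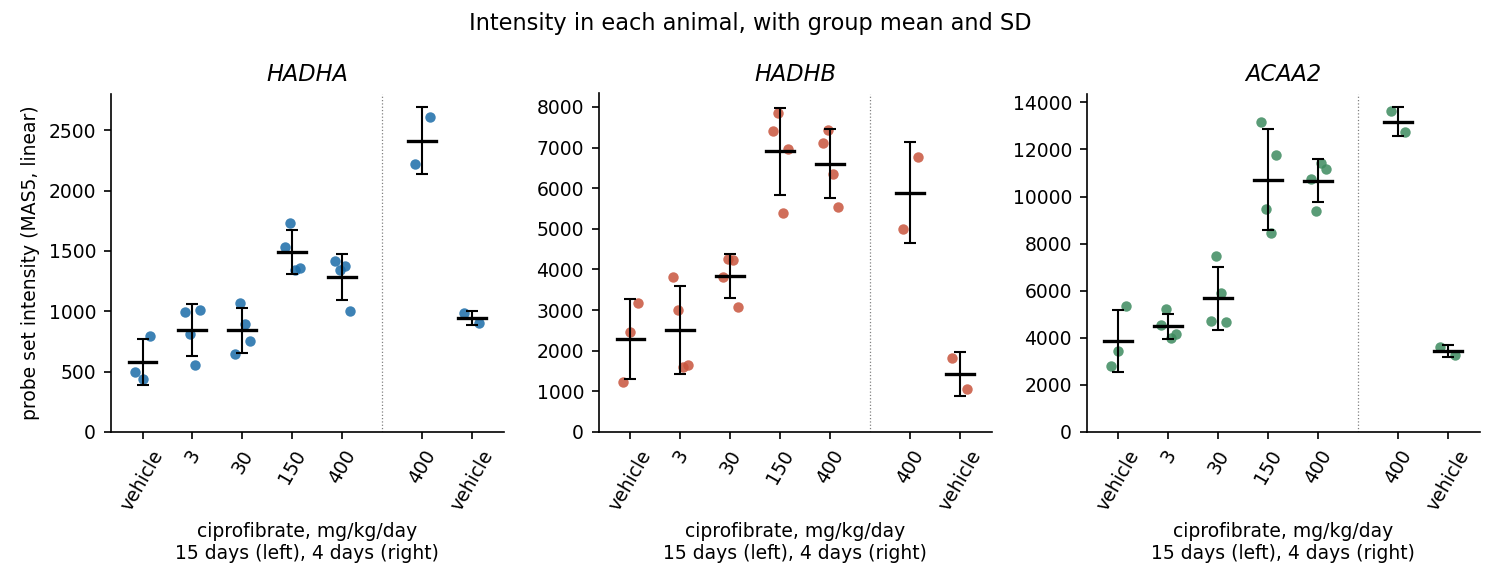
Probe set intensity (linear scale from 0) of HADHA, HADHB and ACAA2 in each of the 23 animals, by dose for 15 days on the left of the dotted line and for 4 days on its right. Points are animals, bars the group mean and its SD. At 15 days the values on 150 and 400 mg/kg/day sit above vehicle for each gene, and at 4 days the 400 mg/kg/day animals sit above vehicle.

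In order of group means HADHA ran from 2415 on 400 mg/kg/day at 4 days, through 1492 and 1284 on 150 and 400 mg/kg/day at 15 days and 944 in 4-day vehicle animals, to 845 and 841 on 3 and 30 mg/kg/day and 579 in 15-day vehicle animals. Neighbours in this order did not overlap between the highest mean and the next, nor between 400 mg/kg/day at 15 days and 4-day vehicle, and all other neighbours overlapped. HADHB ran from 6902 and 6604 on 150 and 400 mg/kg/day at 15 days and 5886 on 400 mg/kg/day at 4 days to 3839, 2516, 2296 and 1432 on 30 and 3 mg/kg/day, 15-day vehicle and 4-day vehicle. ACAA2 ran from 13188 on 400 mg/kg/day at 4 days and 10719 and 10676 on 150 and 400 mg/kg/day at 15 days to 5688, 4481, 3864 and 3433 in the same order of groups as HADHB. For HADHB and ACAA2 the only neighbours without overlap were those on either side of the gap above 30 mg/kg/day.

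Prolonged dosing at the highest level was examined by setting 400 mg/kg/day against vehicle at 15 days. All 3 genes rose, against 1.26% of tested probe sets called as higher. HADHA averaged 1284 ± 189.9 on 400 mg/kg/day (SD, n = 4) and 579 ± 192 in vehicle animals (SD, n = 3), a change of 1.16 ± 0.22 (limma adjusted p = 0.00366) or 2.24-fold. HADHB averaged 6604 ± 847 on 400 mg/kg/day (SD, n = 4) and 2296 ± 986 in vehicle animals (SD, n = 3), a change of 1.61 ± 0.29 (limma adjusted p = 0.00316) or 3.06-fold. ACAA2 averaged 10676 ± 908 on 400 mg/kg/day (SD, n = 4) and 3864 ± 1314 in vehicle animals (SD, n = 3), a change of 1.51 ± 0.20 (limma adjusted p = 0.000141) or 2.85-fold. The treated and vehicle animals did not overlap for any of the 3 genes, which held for 6.72% of tested probe sets. In a whole-tissue sample, a change in the share of cells of a type and a change in RNA per cell cannot be told apart. In the same animals the summed Kupffer cell markers were 2482 to 3418 on 400 mg/kg/day and 3895 to 5406 in vehicle animals, and the endothelial markers 1557 to 1821 and 2289 to 2504. The T and NK cell markers were 811 to 895 on 400 mg/kg/day and 753 to 808 in vehicle animals, and the muscle markers 386 to 434 and 444 to 547. The summed hepatocyte markers were 64963 to 77803 on 400 mg/kg/day and 77096 to 86094 in vehicle animals. The part of these shifts in the result was not tested.

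On 150 mg/kg/day the 3 genes rose as well, against 0.531% of tested probe sets called as higher. The changes from vehicle were 1.38 ± 0.22 for HADHA (limma adjusted p = 0.00325), 1.67 ± 0.29 for HADHB (limma adjusted p = 0.00632) and 1.50 ± 0.20 for ACAA2 (limma adjusted p = 0.00144). ACAA2 had the smallest p of all 7535 probe sets in this comparison and HADHA the 4th smallest. Again the 150 mg/kg/day animals did not overlap with vehicle animals for any of the 3 genes, which held for 5.16% of probe sets. Summed Kupffer cell markers were 3361 to 3788 on 150 mg/kg/day and 3895 to 5406 in vehicle animals, and hepatocyte markers 61740 to 92622 and 77096 to 86094. T and NK cell markers were 618 to 702 on 150 mg/kg/day and 753 to 808 in vehicle animals, and the part of these shifts was not tested. The call of HADHB was lost without 15-day vehicle replicate 1, its lowest vehicle animal (1.28, adjusted p = 0.0572).

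On 30 mg/kg/day none of the 3 genes was called, and 0% of tested probe sets were called as higher. The changes were 0.55 ± 0.22 for HADHA, 0.83 ± 0.29 for HADHB and 0.58 ± 0.20 for ACAA2, and each 95% interval lay above 0 (limma adjusted p = 0.43, 0.394 and 0.394). With 1 animal left out HADHB ran from 0.44 to 1.12 and ACAA2 from 0.38 to 0.84, in both cases lowest without vehicle replicate 1. On 3 mg/kg/day none was called either, nor was any tested probe set (0%), although 757 had an unadjusted p under 0.05. HADHA differed from vehicle by 0.54 ± 0.22, with a 95% interval of 0.09 to 0.99 (limma adjusted p = 0.4). HADHB differed by 0.13 ± 0.29, a difference that turned negative without vehicle replicate 1 (-0.26) or 3 mg/kg/day replicate 1 (-0.099), and ACAA2 by 0.26 ± 0.20, or 0.057 without vehicle replicate 1. All 4 of these comparisons share the same 3 vehicle animals, of which replicate 3 was the highest for all 3 genes.

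Doses set against each other do not use the vehicle animals. From 3 to 30 mg/kg/day the steps were 0.01 ± 0.20 for HADHA, 0.70 ± 0.27 for HADHB and 0.32 ± 0.19 for ACAA2, with 0% of tested probe sets called as higher. The steps from 30 to 150 mg/kg/day were 0.83 ± 0.20 for HADHA, 0.84 ± 0.27 for HADHB and 0.92 ± 0.19 for ACAA2. None of these was called (limma adjusted p = 0.107, 0.302 and 0.0714), in a comparison that called 0.0133% of tested probe sets as higher. No animal of the 150 mg/kg/day group overlapped with the 30 mg/kg/day group for any of the 3 genes, which held for 2.08% of probe sets. From 150 to 400 mg/kg/day no further rise was seen. The differences of 400 from 150 mg/kg/day were -0.22 for HADHA (95% interval -0.64 to 0.20), -0.06 for HADHB (-0.62 to 0.51) and 0.01 for ACAA2 (-0.38 to 0.40). These intervals still allow a further change of up to about 1.42-fold for HADHB and 1.32-fold for ACAA2, and the comparison called 0.252% of tested probe sets as higher.

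Against the lowest dose, HADHB rose by 1.48 ± 0.27 (limma adjusted p = 0.002) and ACAA2 by 1.25 ± 0.19 (limma adjusted p = 0.00024) on 400 mg/kg/day, while HADHA differed by 0.62 ± 0.20 and was not called (limma adjusted p = 0.0856). This comparison called 1.92% of tested probe sets as higher and 2.26% as lower. Called as lower were the Kupffer cell markers MARCO (-2.21 ± 0.46) and CD14 (-0.78 ± 0.19) and the hepatocyte marker HP (-1.09 ± 0.29). The rest of their lists did not all go this way. A positive change, called or not, was seen in 4 of 9 hepatocyte markers (median of the list -0.003) and 2 of 7 tested Kupffer cell markers (median -0.39). Summed Kupffer cell markers were 2482 to 3418 on 400 mg/kg/day and 3930 to 5938 on 3 mg/kg/day, and T and NK cell markers 811 to 895 and 567 to 763. The part of these shifts was not tested. For 150 against 3 mg/kg/day the values were 1.54 ± 0.27 for HADHB, 1.24 ± 0.19 for ACAA2 and 0.84 ± 0.20 for HADHA, of which the last was not called (limma adjusted p = 0.00991, 0.00208 and 0.0923), against 0.173% called as higher. The call of HADHB here was lost without 3 mg/kg/day replicate 4 or 150 mg/kg/day replicate 2 (adjusted p = 0.0521 and 0.0571). A slope over the 5 equally spaced dose steps at 15 days, vehicle included, was positive and called for all 3 genes, against 1.79% of tested probe sets, while 1.31% had a called negative slope, the Kupffer cell markers CD14 (-0.18 ± 0.05) and CD5L (-0.32 ± 0.08) among them. Per step it was 0.32 ± 0.05 for HADHA (limma adjusted p = 0.000287), 0.48 ± 0.07 for HADHB (limma adjusted p = 7.77e-05) and 0.43 ± 0.04 for ACAA2 (limma adjusted p = 2.92e-06).

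At 4 days the question is how soon the highest dose acted. All 3 genes rose on 400 mg/kg/day, against 0.252% of tested probe sets called as higher. The change was 1.34 ± 0.28 for HADHA (limma adjusted p = 0.039), 2.06 ± 0.39 for HADHB (limma adjusted p = 0.0177) and 1.94 ± 0.27 for ACAA2 (limma adjusted p = 0.00163), or 2.53-fold, 4.18-fold and 3.83-fold. ACAA2 again had the smallest p of all 7535 probe sets. With 2 animals a group, absence of overlap held for 18.4% of probe sets, the 3 genes among them. The calls of HADHA and HADHB were lost whichever of the 4 animals was left out (adjusted p = 0.182 to 0.355 for HADHA and 0.0513 to 0.329 for HADHB), whereas that of ACAA2 was kept in each case (adjusted p = 0.0121 to 0.0452). In the same animals the summed Kupffer cell markers were 2952 to 3306 on 400 mg/kg/day and 3957 to 5278 in vehicle animals, the stellate cell markers 639 to 742 and 886 to 1053 and the hepatocyte markers 55103 to 55803 and 59577 to 62940. The cholangiocyte markers were 234 to 263 on 400 mg/kg/day and 267 to 298 in vehicle animals, and the muscle markers 331 to 344 and 247 to 249. The 5' to 3' signal ratio of ACTB, a measure of RNA integrity, was 1.02 to 1.21 on 400 mg/kg/day and 0.748 to 0.988 in vehicle animals, again with no overlap. The same ratio of GAPDH did overlap, at 0.974 to 1.17 on 400 mg/kg/day and 0.947 to 0.993 in vehicle animals. The part of these shifts in the result was not tested. HADHA also lost its call in 6 alternative fits (adjusted p = 0.0601 to 0.124), and HADHB in 2 (adjusted p = 0.0816 and 0.0959).

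The effect of 400 mg/kg/day at 15 days minus that at 4 days was -0.18 for HADHA (95% interval -0.91 to 0.56), -0.45 for HADHB (-1.46 to 0.56) and -0.43 for ACAA2 (-1.12 to 0.27). None was called, nor was any tested probe set (limma, 0%; 254 had an unadjusted p under 0.05), and the intervals are wide. With 1 animal left out this difference ran from -0.84 (without 15-day vehicle replicate 1) to -0.060 (without 4-day vehicle replicate 2) for HADHB, and for ACAA2 from -0.63 (without 15-day vehicle replicate 1) to -0.17 (without 15-day vehicle replicate 3).

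**Figure D2:**
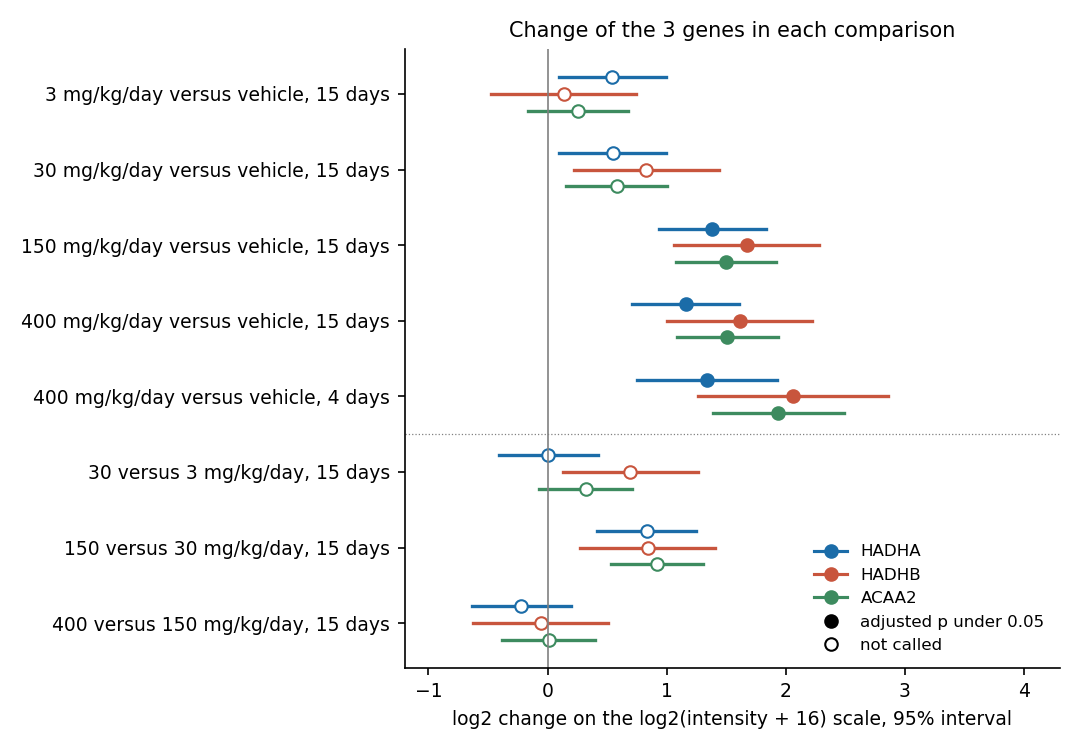
Change of HADHA, HADHB and ACAA2 on the log2(intensity + 16) scale (x axis) with 95% intervals from the limma fit, for each comparison (rows). Filled points had an adjusted p under 0.05. Above the dotted line each dose is set against vehicle of the same day, and below it neighbouring doses at 15 days. The step from 30 to 150 mg/kg/day is positive for each gene, between 0.83 and 0.92, and that from 150 to 400 mg/kg/day lies between -0.22 and 0.01.

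The subunits of the trifunctional protein are made from separate genes, which in human lie head to head on the same chromosome. In the RefSeq gene table for the monkey assembly T2T-MFA8v1.1 they are overlapping neighbours, with ACAA2 on another chromosome. To see whether the genes responded by unequal amounts, the difference between their log2 values was taken in each animal. Its size depends on the 2 probe sets, so only its shift between groups is read. An animal's own sequence under either probe set can also change it. For HADHB minus HADHA this was 2.27 ± 0.15 on 150 and 400 mg/kg/day (SD, n = 8) and 1.90 ± 0.58 in 15-day vehicle animals (SD, n = 3). Treated exceeded vehicle animals by 0.37 (exact permutation p = 0.0848, two-sided, 0.255 after adjustment over 3 pairs), a difference of 0.064 without vehicle replicate 1 and 0.64 without vehicle replicate 2. For ACAA2 minus HADHA the treated animals exceeded vehicle by 0.23 (exact permutation p = 0.267, adjusted 0.4), or by 0.12 without vehicle replicate 1, and ACAA2 minus HADHB differed by -0.14 (exact permutation p = 0.497, adjusted 0.497), of opposite sign without vehicle replicate 1 (0.053). The smallest p these 165 arrangements allow is 0.00606. Against the 4 animals on 3 mg/kg/day, the 8 high-dose animals had the larger HADHB minus HADHA by 0.78 (exact permutation p = 0.00202, adjusted 0.00606) and the larger ACAA2 minus HADHA by 0.52 (exact permutation p = 0.0323, adjusted 0.0485).

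The days differed in the HADHB minus HADHA difference of log2 values, in a comparison made after the values had been seen. HADHB minus HADHA ran from 2.19 to 2.46 in 400 mg/kg/day animals at 15 days and from 1.17 to 1.37 at 4 days, and in vehicle animals from 1.29 to 2.44 at 15 days and from 0.22 to 0.87 at 4 days. At neither dose did the days overlap, although animals on 3 mg/kg/day for 15 days, which have no 4-day match, ran from 0.70 to 1.92, into the 4-day range. Over vehicle and 400 mg/kg/day together the 7 animals of 15 days exceeded the 4 animals of 4 days by 1.25 (exact permutation p = 0.00606, 0.00909 after adjustment over 3 pairs), and for ACAA2 minus HADHA by 0.75 (exact permutation p = 0.00606, adjusted 0.00909). For ACAA2 minus HADHB the difference was -0.50 (exact permutation p = 0.0424, adjusted 0.0424), and it was lost in 7 of 11 cases with 1 animal left out (adjusted p up to 0.108). These permutations did not hold dose fixed, so their p is not one for day alone. The group means of HADHB minus HADHA also differed with dose. On vehicle and 400 mg/kg/day they were 0.54 and 1.27 at 4 days, and 1.90 and 2.35 at 15 days. HADHA itself was lower at 15 than at 4 days by -0.74 ± 0.26 in vehicle animals (limma adjusted p = 0.2) and by -0.91 ± 0.25 on 400 mg/kg/day (limma adjusted p = 0.0501), neither of them called, in comparisons that called 0.863% and 2.34% of tested probe sets in either direction. HADHB differed between the days by 0.62 ± 0.35 in vehicle animals and 0.17 ± 0.33 on 400 mg/kg/day. The ACTB ratio between its 5' and 3' probe sets was 0.540 to 0.606 in vehicle animals at 15 days and 0.748 to 0.988 at 4 days. On 400 mg/kg/day it was 0.552 to 0.839 at 15 days and 1.02 to 1.21 at 4 days, so the days did not overlap at either dose. That of GAPDH overlapped, at 0.721 to 1.31 in these animals at 15 days and 0.947 to 1.17 at 4 days. In the same animals the summed hepatocyte markers were 64963 to 86094 at 15 days and 55103 to 62940 at 4 days. The cholangiocyte markers were 312 to 508 at 15 days and 234 to 298 at 4 days, and the muscle markers 386 to 547 and 247 to 344. The sums of the other marker lists overlapped between the days. The part of RNA integrity and of these shifts in this difference was not tested.

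**Figure D3:**
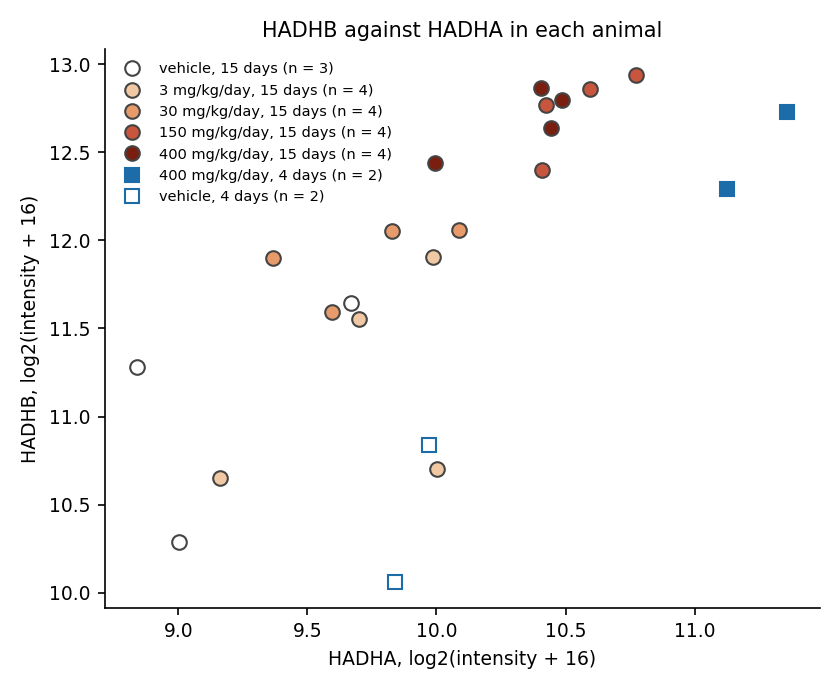
HADHB (y axis) against HADHA (x axis), both as log2(intensity + 16), in each of the 23 animals, circles for 15 days and squares for 4 days. HADHB minus HADHA on 400 mg/kg/day was 2.19 to 2.46 at 15 days and 1.17 to 1.37 at 4 days, in vehicle animals 1.29 to 2.44 and 0.22 to 0.87, and on 3 mg/kg/day for 15 days it reached down to 0.70.

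Of 27 genes listed for mitochondrial fatty acid oxidation, 20 were tested, 17 of them besides HADHA, HADHB and ACAA2. In these 17 genes 0 rose on 3 and 30 mg/kg/day, 3 rose on 150 and 5 on 400 mg/kg/day at 15 days, 1 rose on 400 mg/kg/day at 4 days and 0 fell in any of these comparisons. Their median changes were 0.30, 0.42, 0.76 and 0.70 at 15 days in order of dose and 0.67 at 4 days, beside medians over 5462 genes between -0.05 and -0.01. Over all tested probe sets, 0.531% were called as higher on 150 mg/kg/day, 1.26% on 400 mg/kg/day at 15 days and 0.252% at 4 days. On 3 and 30 mg/kg/day 0% were called as higher, so the counts of 0 there do not set these genes apart. Called as lower were 0.146% on 150 mg/kg/day, 0.876% on 400 mg/kg/day at 15 days and 0.0398% at 4 days. The 15-day slope was called as positive for 10 of the 17, against 1.79% of tested probe sets. Each leave-out of 1 animal brought the 5 genes on 400 mg/kg/day down to 2 or 3, and the slope count fell to 3 without vehicle replicate 1 and to 5 without vehicle replicate 2. The 3 genes on 150 mg/kg/day became 0 without vehicle replicate 1 or 2 and 1 without 150 mg/kg/day replicate 1, 2 or 4, and the 1 gene at 4 days became 0 without any of its animals.

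Along the pathway, fatty acid import came first. The plasma membrane carnitine carrier SLC22A5 rose by 1.98 ± 0.39 and the acylcarnitine carrier SLC25A20 by 1.07 ± 0.26 on 400 mg/kg/day at 15 days, while CPT1A, which forms acylcarnitine, differed by 0.48 ± 0.39 and was not called. Among the acyl-CoA dehydrogenases, which act just before the trifunctional protein, the very-long-chain ACADVL rose on 150 mg/kg/day (0.78 ± 0.16) and at 4 days (1.01 ± 0.21), and the short-chain ACADS on 150 mg/kg/day (1.45 ± 0.28). Neither was called on 400 mg/kg/day at 15 days (0.52 ± 0.16 and 0.86 ± 0.28), nor was the medium-chain ACADM (0.69 ± 0.19, limma adjusted p = 0.052). The flavoproteins that take up their electrons rose in part, ETFA by 1.11 ± 0.18 on 400 mg/kg/day and ETFDH by 1.04 ± 0.24 on 150 mg/kg/day. At the other of these doses each fell short of a call, ETFA with 0.76 ± 0.18 (limma adjusted p = 0.0509) and ETFDH with 0.82 ± 0.24 (limma adjusted p = 0.0763). ETFB was not called, with 0.93 ± 0.28 on 150 and 0.64 ± 0.28 on 400 mg/kg/day at 15 days and 1.62 ± 0.36 at 4 days. DECR1, which handles unsaturated chains, rose by 0.89 ± 0.23 on 400 mg/kg/day. PCCA and PCCB, the subunits of propionyl-CoA carboxylase, which disposes of the remnant of odd chains, differed by -0.02 and -0.09.

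**Figure D4:**
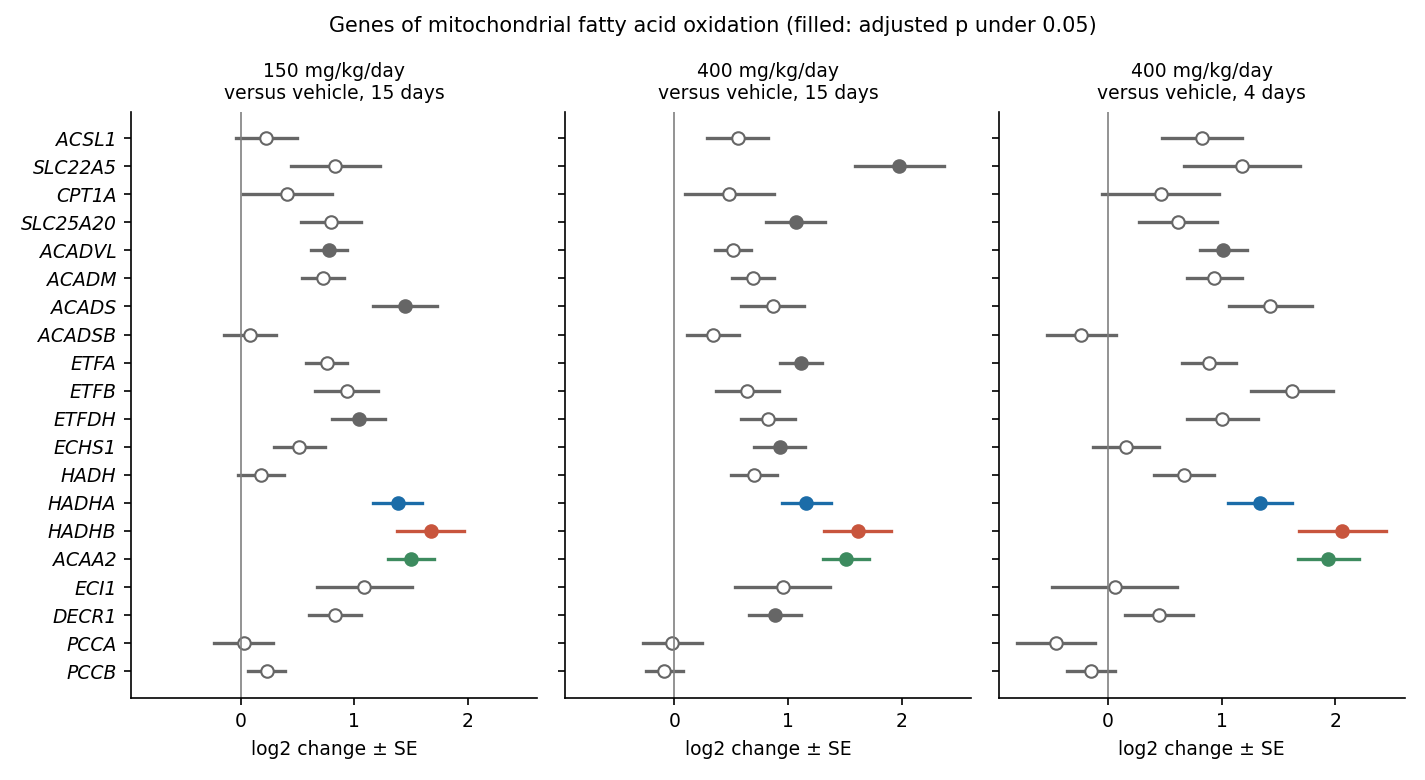
Log2 change with SE (x axis) of the 20 tested genes of mitochondrial fatty acid oxidation (rows, from import at the top to propionyl-CoA handling at the bottom) in 3 comparisons. Filled points had an adjusted p under 0.05, and HADHA, HADHB and ACAA2 are in colour. These 3 are filled in each panel, between 1.16 and 2.06, and SLC22A5 reaches 1.98 on 400 mg/kg/day at 15 days.

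Enzymes with activities related to those of the trifunctional protein, in mitochondria or elsewhere in the cell, were partly called. Among tested relatives of its alpha subunit on 400 mg/kg/day at 15 days, the matrix hydratase ECHS1 rose by 0.93 ± 0.22 and the peroxisomal bifunctional enzyme HSD17B4 by 0.90 ± 0.23. The short-chain dehydrogenase HADH (0.70 ± 0.20) and the isomerase ECI1 (0.95 ± 0.42) were not called, and the median of the 6 relatives was 0.80. ECHS1, HADH and ECI1 were also among the 17 genes of mitochondrial fatty acid oxidation counted above. On 150 mg/kg/day and at 4 days 0 of the 6 relatives rose. Of all tested probe sets 0.531% and 0.252% were called as higher there, so these counts do not set the relatives apart. Among the other thiolases the peroxisomal ACAA1 rose on 150 mg/kg/day (1.03 ± 0.17, limma adjusted p = 0.00394) but was not called on 400 mg/kg/day (0.54 ± 0.17). The acetoacetyl-CoA thiolases ACAT1 of mitochondria and ACAT2 of the cytosol differed by 0.13 ± 0.27 and -0.97 ± 0.38 on 400 mg/kg/day, neither of them called. Of 7 tested genes of peroxisomal fatty acid oxidation, 1 rose and 0 fell on 400 mg/kg/day (median 0.14), the riser being the HSD17B4 named above. Over all tested probe sets 1.26% were called as higher and 0.876% as lower in this comparison. ABCD3, a peroxisomal fatty acid carrier, differed by 0.91 ± 0.39, and PHYH, which starts the breakdown of phytanic acid, by -0.70 ± 0.48. BDH1, which makes hydroxybutyrate, rose by 1.01 ± 0.23, the other of 2 tested ketone body enzymes being ACAT1.

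Of 15 tested general mitochondrial genes (import, outer membrane, chaperones and carriers), 0 rose and 0 fell against vehicle at any dose or day, where the share of all tested probe sets called as higher or as lower was 1.26% at most, so this count does not set them apart (limma, medians 0.26, 0.24, 0.17 and 0.13 in order of dose at 15 days and 0.32 at 4 days). On 400 mg/kg/day at 15 days the chaperonins HSPE1 and HSPD1 differed by 0.84 ± 0.29 and 0.51 ± 0.24, the outer membrane pore VDAC1 by 0.36 ± 0.19 and the import receptor TOMM70 by 0.25 ± 0.19. Citrate synthase, CS, differed by -0.15 ± 0.26.

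Likeness to each gene was measured as Pearson's r of the log2 values over all 23 arrays, across 5461 other genes. This describes arrays that share dosing, scaling and RNA quality. HADHA was most like the acyl-CoA dehydrogenase ACADVL (r = 0.895), LITAF, an endosomal protein (0.894), HSD17B4 (0.891), the very-long-chain acyl-CoA synthetase SLC27A2 (0.877) and the proteasome subunit PSMB6 (0.853). ACAA2 came 6th in its order (0.841) and HADHB only 37th (0.704). For HADHB, ACAA2 came 1st (r = 0.904), before the proteasome subunit PSMB5 (0.871), the fatty acid binding protein FABP1 (0.861), BDH1 (0.847), ACADS (0.841) and the dienoyl-CoA isomerase ECH1 (0.823). ACAA2 was most like BDH1 (r = 0.917), ahead of HADHB, PSMB5 (0.891), ETFA (0.852), the quinone reductase NQO1 (0.845) and LITAF (0.837).

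Dose and day were then taken out. In deviations from the group means the r was 0.542 between HADHA and HADHB, 0.544 between HADHA and ACAA2 and 0.586 between HADHB and ACAA2, against medians over all other genes between -0.02 and 0.00. In these deviations ACAA2 came 81st and HADHB 85th of 5461 genes for HADHA. For HADHB, ACAA2 came 100th and HADHA 157th, and for ACAA2, HADHB came 48th and HADHA 79th. Most like HADHA were SKIC2, ACADM, PAFAH1B2, HSD17B4 and TFR2 (0.743 to 0.826). Most like HADHB were PRKAR1A, CCNH, OSTF1, TOPORS and PTPRF (0.765 to 0.819), and most like ACAA2 were RAPGEF5, TRIM2, BDH1, PPP2R1B and XPO6 (0.722 to 0.803).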

How the data were processed

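RNA from the liver of 23 monkeys was measured on 1 human array each. The authors deposited intensities of probe sets on a linear scale, and the submitters' processing notes name MAS5. Its version and settings are not given in the sources used here. After trimming 2% at each end, array means were 150.065 to 150.08, so the authors' arrays share 1 scale, which was kept. With human probes on monkey RNA, an animal's own sequence can change its signal.

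Of 12625 probe sets, 67 controls were left out. A pseudocount of 16 was added, and the 7535 of 12558 at or above the 40th percentile of the mean log2 value were tested. A means model for 7 groups was fitted with limma 3.58.1 (R 4.3.3) with an intensity trend, two-sided, adjusted by Benjamini-Hochberg (16 residual and 6.63 prior degrees of freedom). Each of 5462 genes was represented by 1 tested probe set that named no other gene, the one of highest mean. Pairs of genes were compared by exact permutation of animals on the absolute difference of means (Python 3.11.15, SciPy 1.17.1).

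The 3 genes and the gene lists were chosen with earlier results of these data known. Named from each pathway list were all genes called against vehicle or in the slope and up to 4 with the smallest p on 400 mg/kg/day at 15 days, from each marker list the genes called against vehicle, in the slope or on 400 against 3 mg/kg/day, and by likeness the 5 genes with the highest r. CPT1A, PCCA, PCCB, CS and the genes not called that share a paragraph with these were added after their values were seen.

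On simulated data built on the 7535 probe sets, the fit recovered 24 of 67 changes of 1 and 57 of 66 changes of 2 in the contrast of 400 mg/kg/day and vehicle after 15 days, with 5 false calls among 7335. At 4 days it recovered 12 of 67 and 35 of 66, with 2 false calls. Replicate numbers were checked for pairing: same-numbered animals of different groups had deviations from group means that correlated at -0.087 to 0.072 over 58 pairs. Animals of different number and group correlated at -0.103 to 0.123 over 166 pairs. No array-wide pairing was seen, and the main fit used none, but this check cannot exclude a weak one. The sample titles number the biological replicates within each group and name no animal. Alternatives covered pseudocount, filter, scaling, variance options, array weights, a replicate block, separate fits, dose scores and leaving out each animal. Each of the 3 genes has 1 probe set, so averaging probe sets changes nothing. Sequences of the probes and genes were not used here.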

Additional observations from a re-analysis of the deposited data

Results flagged for a closer look

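HADHA on 400 mg/kg/day at 15 days had 1 animal apart from the others, replicate 4 with an intensity of 1003.1, whose gap to the next animal was 0.841 of the group's whole range on the log2 scale (Dixon's 95% critical value for 4 samples is 0.829). It was 1 of 12 groups examined over the 3 genes, and chance alone gives about 5% of groups. Without this animal the change of HADHA against vehicle was 1.27 (limma adjusted p = 0.00321), and the difference of 400 from 150 mg/kg/day was -0.11.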

How the results depend on the processing

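For 54 results, 1017 values were recomputed in all, and 932 of these values kept their direction and side of the threshold (counts within 1.5 times). Results that were not called and stayed so are among the 932. Every alternative fit and every animal left out kept the calls of HADHA and ACAA2 on 150 mg/kg/day, of all 3 genes on 400 mg/kg/day at 15 days, of ACAA2 at 4 days and of all 3 slopes. At 4 days HADHA lost its call with no filter, no trend, a replicate block or a separate fit (1.34 each, adjusted p = 0.0601 to 0.124), with quantile normalization (1.18) and with median scaling (1.42), and HADHB with no trend or a separate fit (2.06). In these fits the cause was not tested. The replicate block changed no other call of the 3 genes, and in the count at 4 days it gave 2 genes in place of 1. HADHB on 150 against 3 mg/kg/day lost its call in a separate fit (1.54, adjusted p = 0.059), and ACAA2 on 150 against 30 mg/kg/day gained one with the filter at the 60th percentile, which tests fewer probe sets (0.92, adjusted p = 0.0477). Small differences turned sign: HADHA on 30 against 3 mg/kg/day with median scaling (-0.050) and array weights (-0.0054), and HADHB on 400 against 150 mg/kg/day with median scaling (0.017). Set against 3 mg/kg/day in place of vehicle, HADHB minus HADHA (0.78) and ACAA2 minus HADHA (0.52) passed the threshold.

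With 1 animal left out, values ran from 1.22 to 1.45 for HADHA and 1.67 to 2.45 for HADHB at 4 days, where an arm of 1 animal is assumed to vary like the other groups. They ran from -0.26 to 0.42 for HADHB on 3 mg/kg/day, 1.28 to 1.96 for HADHB on 150 mg/kg/day and 1.35 to 1.77 for HADHB on 150 against 3 mg/kg/day. For 30 against 3 mg/kg/day HADHA ran from -0.18 to 0.12, for 400 against 150 mg/kg/day HADHB from -0.17 to 0.023 and ACAA2 from -0.095 to 0.12. HADHA ran from -0.34 to 0.074 for the 15-day minus the 4-day effect, ACAA2 from -0.14 to 0.32 between vehicle groups, HADHB from -0.044 to 0.39 between 400 mg/kg/day groups (-0.044 without 4-day replicate 1) and ACAA2 minus HADHB from -0.30 to 0.053. On 400 mg/kg/day HADHA of 15 against 4 days had an adjusted p of 0.0155 to 0.109 over the other alternatives, and 4 of 11 called it.

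The count of rising genes of mitochondrial fatty acid oxidation other than these 3 varied more. At 4 days it was 2 with a pseudocount of 64 or the filter at the 60th percentile, 0 with no filter, quantile normalization, no trend or a separate fit, 6 with array weights and 0 with any animal left out. On 150 mg/kg/day it was 1 with no trend or a separate fit, 5 with array weights and 0 to 4 with an animal left out. On 400 mg/kg/day it was 3 with no trend, 8 with array weights and 2 to 3 with an animal left out. For the slope it was 6 with dose in mg/kg/day as the score, 4 with treated doses only and 3 to 10 with an animal left out.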
